A study of Homo sapiens with 4 samples.

Results

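The 10 genes described here are immediate early transcription factors, chosen by symbol: FOS, FOSB, JUN, JUNB, JUND, EGR1, EGR2, EGR3, IER2 and KLF6. All 10 were matched among the 51714 Ensembl identifiers of the deposited files, and 5 of them (JUNB, JUND, KLF6, IER2 and JUN) had enough reads to be tested. The RNA came from Raji, an established human line of Burkitt lymphoma B cells, positive for Epstein-Barr virus. Every culture expressed an HA-tagged large subunit of RNA polymerase II (RPB1) that resists α-amanitin, from a transfected vector, in polyclonal cells selected with G418 and then for 10 days with α-amanitin, which blocks the cells' own polymerase. The 2 WT libraries carried the wild-type resistant subunit and the 2 R1810A libraries carried one whose arginine (R1810), a methylation site of the C-terminal domain, was replaced by alanine. The labels name no stimulus, and whether replicates are separate cultures is not stated. The p-values thus reflect the spread among these 4 libraries alone, and that spread may be technical.

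Immediate early genes are switched on by growth factors, antigen receptor signals or stress without new protein synthesis, because their activators already sit in the cell. FOS and JUN proteins pair through leucine zippers to form the AP-1 factor, while the EGR proteins and KLF6 bind GC-rich DNA through zinc fingers. Their transcripts are often short-lived, as AU-rich stretches of the 3′ untranslated region recruit decay factors, so that their level follows RNA polymerase II output closely. In B cells the group is known for its response to the B cell receptor.

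The promoters of 4 members are shown, the 2 most abundant in these libraries (JUNB and JUND) and 2 that lay near the counting limit (FOS and EGR1). Each run is the 250 bases before the RefSeq start, on the gene's strand, from GRCh38.p14. The reads were aligned to hg19, so these positions belong to the sequences only. Capitals mark 6 motifs searched on both strands: the CArG box bound by SRF, the CREB site TGACGTCA, its variant TGACATCA, its core TGACG (also counted inside TGACGTCA), TATAA and CCAAT.
JUNB (chr19:12791236-12791485, plus strand): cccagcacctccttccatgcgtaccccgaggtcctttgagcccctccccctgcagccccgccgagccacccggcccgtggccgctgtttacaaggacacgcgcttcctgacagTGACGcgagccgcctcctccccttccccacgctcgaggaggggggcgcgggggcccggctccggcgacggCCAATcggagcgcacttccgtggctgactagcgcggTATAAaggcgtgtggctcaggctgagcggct
JUND (chr19:18281623-18281872, minus strand): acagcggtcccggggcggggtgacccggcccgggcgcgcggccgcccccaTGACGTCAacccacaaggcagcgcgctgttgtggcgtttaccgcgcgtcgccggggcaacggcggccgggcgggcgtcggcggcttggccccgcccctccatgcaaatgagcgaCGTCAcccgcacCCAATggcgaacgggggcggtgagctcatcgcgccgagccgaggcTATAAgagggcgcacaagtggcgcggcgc
FOS (chr14:75278578-75278827, plus strand): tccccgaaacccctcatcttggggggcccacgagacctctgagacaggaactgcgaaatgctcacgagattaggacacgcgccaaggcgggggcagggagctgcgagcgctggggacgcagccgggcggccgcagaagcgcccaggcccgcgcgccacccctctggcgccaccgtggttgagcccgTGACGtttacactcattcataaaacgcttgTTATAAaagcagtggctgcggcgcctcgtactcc
EGR1 (chr5:138465229-138465478, plus strand): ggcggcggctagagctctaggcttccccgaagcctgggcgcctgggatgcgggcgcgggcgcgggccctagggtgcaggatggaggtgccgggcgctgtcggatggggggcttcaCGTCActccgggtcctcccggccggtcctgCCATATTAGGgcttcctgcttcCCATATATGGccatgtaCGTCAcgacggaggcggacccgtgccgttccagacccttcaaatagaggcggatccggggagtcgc
EGR1 held 2 CArG boxes, which start 105 and 83 bases before the RefSeq start. The third of 3 EGR2 windows held 1 CArG box, and the windows of the other 7 members read held none. Bases further upstream than these 250 were not searched, so sites there would be missed. A CArG box occurred in 1.16% of the 35116 promoter windows of the table. JUND alone among the members read held TGACGTCA, 200 bases before its start, against 1.65% of windows. JUN and KLF6 each held TGACATCA, against 2.37% of windows. TATAA on the gene's strand lay 29 to 33 bases before the start in JUND, FOSB, JUNB and FOS, against 18.9% of windows with a match anywhere. TGACG was found in at least 1 window of every member read except KLF6 (21.2% of windows), and CCAAT in JUN, JUNB, JUND and KLF6 (32.0%). The GC box GGGCGG, not in capitals, was found in all members read except JUNB and EGR1 (42.6%). A match is a description of these letters and not a measured binding site. The promoter of EGR3 was not used here.

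In GENCODE release 29 the transcript used for JUN, JUNB, JUND and IER2 had a single exon, as had 1.36% of 9076 tested genes with a 3′ untranslated region. The pentamer ATTTA, a core of AU-rich decay elements, occurred 5 times in the 809 bases of the 3′ untranslated region of FOS, which GENCODE annotates from the stop codon. That is 6.18 per kilobase, beside a median of 1.64 over those genes. JUNB had 3.98 per kilobase, JUN 2.33, and the other members 0 to 1.69, with none in IER2. The densest 30 bases of FOS, the member with the highest density, are shown with the pentamers in capitals. A link between this density and the level of a member was not tested.
FOS, bases 636 to 665 of the 3′ untranslated region: ttgtgtttttaATTTATTTAttaagatgga

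Summed gene counts ranged from 2081636 to 2991959 reads per library. The B cell identity of the cells was checked with 7 markers (MS4A1, CD79A, CD79B, PAX5, CD22, CD74 and EBF1), which had 64 to 5674 reads each in every library. Their summed level was 5597 to 7354 CPM (counts scaled to library size, with the TMM factors of edgeR). It was 7155 and 5597 in WT, against 6566 and 7354 in R1810A. The 5 T cell markers summed to 0 to 2 reads per library, with CD3D and CD2 at 0. Of 5 epithelial or fibroblast markers EPCAM, KRT8, KRT18 and COL1A2 were at 0, and COL1A1 had 3 to 13 reads. The 5 myeloid markers summed to 147 to 273 CPM, nearly all from CSF1R (324 to 508 reads) and ITGAM (33 to 56 reads), while CD14 and MPO had at most 1 read. Their sum was 222 and 147 CPM in WT, against 273 and 180.4 CPM in R1810A, so the groups overlapped. CSF1R had a log2 fold change of 0.30 (SE 0.21) and ITGAM one of 0.53 (SE 0.33), the same sign as 4 of the 5 tested members. LYZ had too few reads to be tested, with 8 and 17 in WT, against 9 and 5 in R1810A. Its mean was lower in R1810A, at 3.33 CPM against 4.55 CPM in WT. The part of these markers in the members' values was not tested. POLR2A, the gene of the replaced subunit, had 1999 and 2567 WT reads, against 1987 and 2170 in R1810A (log2 fold change 0.21, SE 0.11, edgeR adjusted p = 0.655). Its reads do not separate the vector from the cells' own gene.

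Raji cells carried much JUNB and JUND transcript, a moderate amount of IER2 and KLF6, little JUN and almost no FOS, FOSB or EGR transcript. The 10 genes held 5090 reads over the 4 libraries, of which JUNB took 46.1%, JUND 31.5%, KLF6 11.6% and IER2 7.05%. To compare genes with each other, the deposited RPKM values were used, which scale reads to gene length and to the deposited total reads of the library. JUNB (ENSG00000171223) stood at 76.6 and 62.6 RPKM in WT, against 85.6 and 71.8 in R1810A. JUND (ENSG00000130522) stood at 61.6 and 43.3 in WT, against 44.6 and 46.1 in R1810A. Their means of 74.2 ± 9.59 and 48.9 ± 8.54 RPKM (SD, n = 4) put them at percentiles 98.2 and 96.96 of all genes with a read, ranked by mean RPKM.

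IER2 (ENSG00000160888), a short nuclear regulator of the response, followed at 9.96 ± 2.22 RPKM (SD, n = 4), with single libraries between 7.94 and 13.03. KLF6 (ENSG00000067082), a zinc finger factor, stood at 5.52 ± 0.798 RPKM, between 4.71 and 6.62. JUN (ENSG00000177606), the founding AP-1 member, stood at 2.04 ± 0.341 RPKM, between 1.67 and 2.48. JUNB was 36.3-fold and JUND 24.0-fold above JUN on this scale. From JUNB through JUND, IER2, KLF6 and JUN to FOS, the ranges of neighbours over the 4 libraries did not overlap. Below FOS they did.

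FOS (ENSG00000170345), the partner of JUN proteins in AP-1, had 9 and 7 WT reads, against 9 and 2 in R1810A, a mean of 0.739 RPKM. FOSB (ENSG00000125740) had 8 and 6 WT reads, against 1 and 5 in R1810A (mean 0.301 RPKM). EGR1 (ENSG00000120738) had 2 and 11 WT reads, against 6 and 5 in R1810A (mean 0.416 RPKM). EGR2 (ENSG00000122877) had 0 and 1 reads against 1 and 3. Scaled to library size, the groups overlapped for FOS, FOSB and EGR1. For EGR2 they did not, at 0 and 0.330 CPM in WT, against 0.476 and 1.43 CPM in R1810A, from 5 reads in all. EGR3 (ENSG00000179388) had 0 reads in each library, which allows up to 3 counts, or 0.172 RPKM in R1810A replicate 1 and less in the others. This limit covers counting error only.

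**Figure D1:**
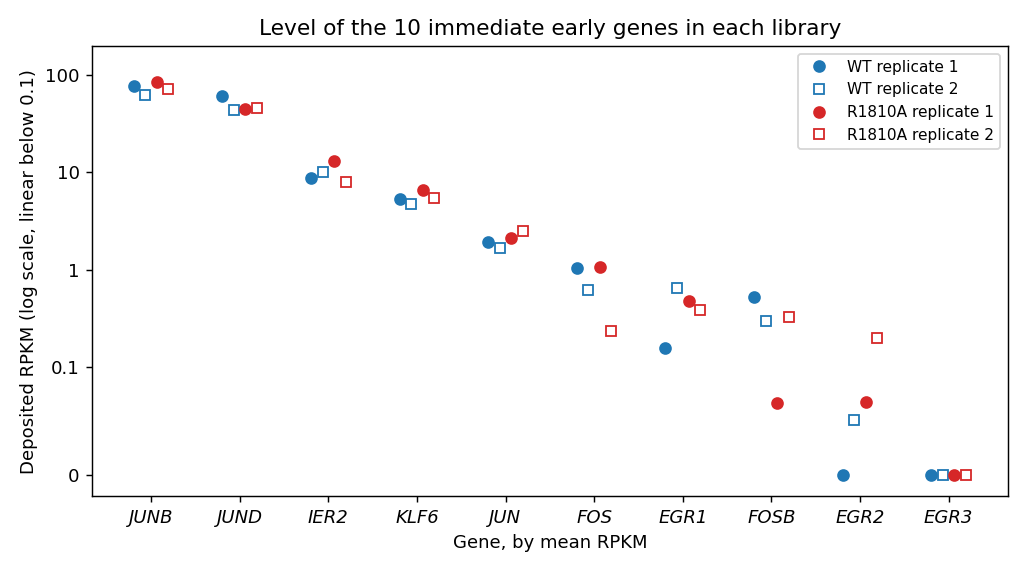
Deposited RPKM of each member in each library, on a log axis that is linear below 0.1; filled and open points are replicates 1 and 2, blue is WT and red is R1810A. JUNB (62.6 to 85.6) and JUND (43.3 to 61.6) lie above the rest in all 4 libraries, and EGR3 is at 0 in all.

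Whether the loss of the methylation site changed these genes was asked by testing R1810A against WT with the quasi-likelihood test of edgeR, fitted over 10674 genes. A gene was called at a Benjamini-Hochberg adjusted p under 0.05. None of the 5 tested members was called in either direction, while 0.356% of all genes tested were called (37 or 0.347% higher and 1 or 0.00937% lower). DESeq2 and limma-voom also called 0 members, beside 0.185% of 21612 genes with a read and 0.234% of the tested genes. At an unadjusted p under 0.05 there were 2 members, both with higher values in R1810A (KLF6 and JUNB), beside 8.00% of all genes in either direction and 4.94% in that direction. The log2 fold change was above 0 for 4 of the 5 tested members and for 49.4% of all genes. Its median was 0.30 over these members and -0.0046 over all genes. The members' median was 0.19 without R1810A replicate 1 and 0.45 without WT replicate 1.

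KLF6 stood at 58.3 and 51.5 CPM in WT, against 77.6 and 65.4 CPM in R1810A. The 2 R1810A values were the highest, without overlap. The fold of R1810A over WT was 1.31 (95% interval 1.03 to 1.65, log2 fold change 0.39, SE 0.15, edgeR adjusted p = 0.563). The mean levels differed 1.30-fold between groups, while replicates differed 1.13-fold in WT and by a factor of 1.19 in R1810A, so the group difference was the larger.

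JUNB stood at 248 and 203 CPM in WT, against 297 and 257 CPM in R1810A. The groups did not overlap in CPM, but R1810A replicate 2 lay close to WT replicate 1. In deposited RPKM they overlapped, as R1810A replicate 2 (71.8) lay below WT replicate 1 (76.6). The means of 225 ± 31.8 and 277 ± 28.4 CPM (SD, n = 2) gave a fold of 1.23 (interval 1.01 to 1.501, log2 fold change 0.30, SE 0.13, edgeR adjusted p = 0.603). The groups differed 1.23-fold and the WT replicates 1.22-fold. The WT replicates of JUNB differed by more than counting error (replicate 2 over replicate 1 was 0.818, exact interval 0.729 to 0.919), as did those of R1810A (0.865, 0.769 to 0.972). Gene annotation of another build places JUNB inside the longer span of HOOK2 on the opposite strand. The use of strand is not given. HOOK2 itself had 15 and 35 WT reads, against 29 and 33 in R1810A (log2 fold change 0.67, SE 0.32). Its part in the JUNB counts was not tested.

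JUN stood at 11.3 and 9.91 CPM in WT, against 13.3 and 16.2 CPM in R1810A, from 26 to 34 reads per library. The R1810A values were the higher ones without overlap. At this depth the fold of 1.40 had an interval of 0.911 to 2.15 (log2 fold change 0.48, SE 0.28, edgeR adjusted p = 0.679). KLF6, JUNB and JUN were the 3 tested members whose groups did not overlap in CPM, all with R1810A higher. In RPKM the groups of JUNB did overlap. Of all genes tested, 39.3% showed no overlap, 19.8% with R1810A higher.

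IER2 stood at 32.2 and 36.7 CPM in WT, against 50.9 and 32.0 CPM in R1810A. R1810A replicate 1 was the high library and R1810A replicate 2 lay just below both WT libraries. The fold was 1.20 (interval 0.851 to 1.69, log2 fold change 0.26, SE 0.22, edgeR adjusted p = 0.791). The R1810A replicates differed 1.59-fold, beyond counting error (replicate 2 over replicate 1 was 0.628, exact interval 0.456 to 0.860), against 1.20-fold between groups. Without R1810A replicate 1 the log2 fold change was -0.11. An antisense gene overlaps IER2 in GENCODE, and without strand its reads cannot be told apart.

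JUND, an AP-1 member known for steady expression in resting cells, stood at 205 and 145 CPM in WT, against 159 and 169.9 CPM in R1810A. WT replicate 1 was the high library, and the R1810A values lay between the WT ones. The fold was 0.947 (interval 0.746 to 1.20, log2 fold change -0.08, SE 0.16, edgeR adjusted p = 0.925). The WT replicates of JUND differed 1.42-fold (replicate 2 over replicate 1 was 0.705, exact interval 0.618 to 0.805), the widest gap in WT among the 5 tested members. Without WT replicate 1 the log2 fold change was 0.19.

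**Figure D2:**
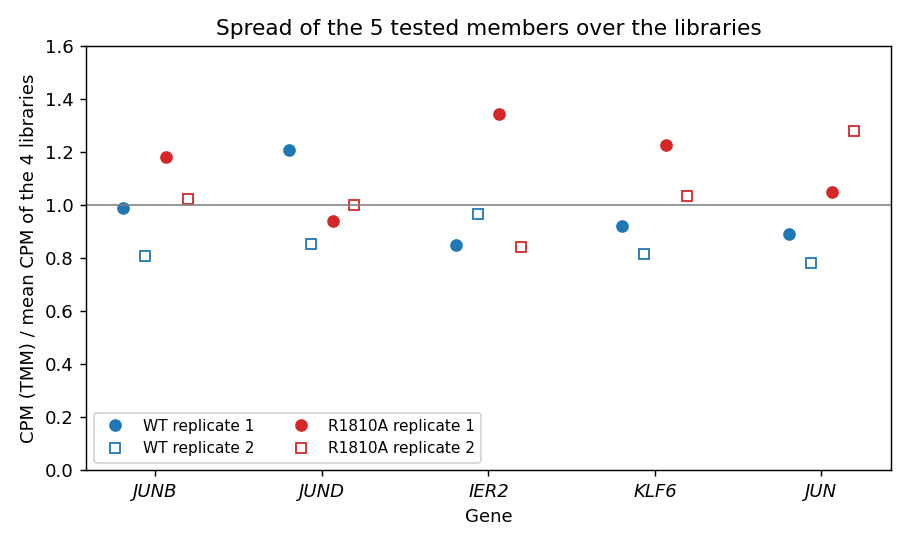
CPM with TMM scaling of the 5 tested members in each library, divided by the gene's mean over the 4 libraries; colours and fills are as for the RPKM plot. Both R1810A points lie above both WT points for JUNB, KLF6 and JUN, whereas a single library stands apart for JUND (WT replicate 1) and IER2 (R1810A replicate 1).

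**Figure D3:**
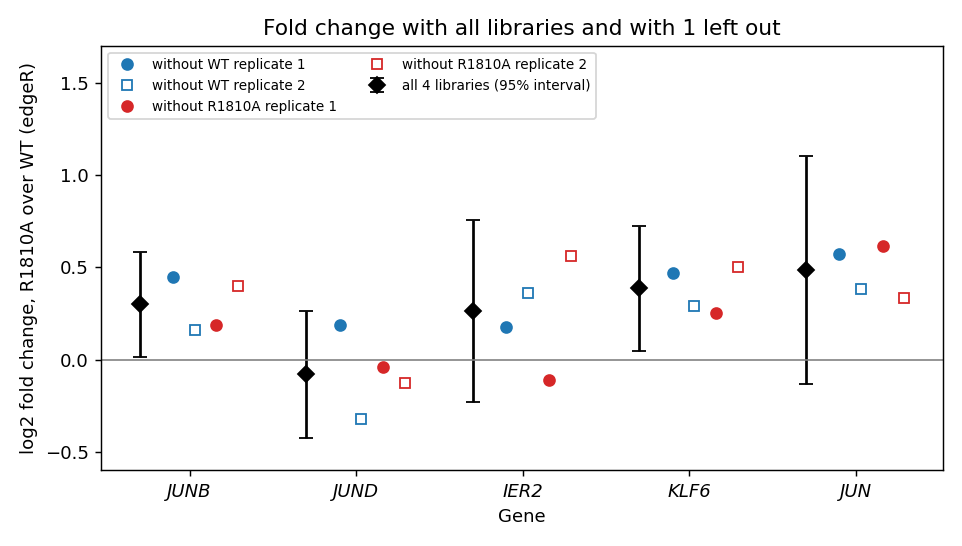
The log2 fold change of R1810A over WT for the 5 tested members from all 4 libraries (black, with its 95% interval) and with 1 library left out (coloured, no interval). JUND turns from -0.08 to 0.19 without WT replicate 1 and IER2 from 0.26 to -0.11 without R1810A replicate 1, while JUNB, KLF6 and JUN stay above 0 in all 5 fits.

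The ratio of 2 members within a library does not depend on the scaling between libraries. JUNB reads per JUND read were 1.21 and 1.40 in WT, against 1.86 and 1.51 in R1810A, a comparison chosen after the values were seen. The R1810A ratios were the higher ones, with means of 1.30 ± 0.137 and 1.69 ± 0.249 (SD, n = 2). The exact interval of WT replicate 2 (1.24 to 1.59) overlapped that of R1810A replicate 2 (1.32 to 1.73). KLF6 reads per JUND read were 0.284 and 0.356 in WT, against 0.487 and 0.385 in R1810A. The exact interval of WT replicate 2 (0.295 to 0.429) overlapped those of R1810A (0.401 to 0.588 and 0.314 to 0.470). For JUN per JUND the ratios were 0.0551 and 0.0685 in WT, against 0.0836 and 0.0955 in R1810A. Their exact intervals in WT were 0.0356 to 0.0817 and 0.0457 to 0.0992. Those of R1810A, 0.0547 to 0.123 and 0.0651 to 0.136, overlapped both. All of these ratios have JUND as the denominator, so they are not separate observations. The ratio of JUNB to KLF6 was 4.25 and 3.94 in WT, against 3.83 and 3.93 in R1810A. Its value in replicate 2 was nearly the same in both groups. The exact intervals overlapped, at 3.52 to 5.17 and 3.30 to 4.72 in WT, against 3.22 to 4.58 and 3.25 to 4.77 in R1810A. With 2 against 2 libraries an exact permutation test cannot give a p below 0.333, so none was computed.

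The members that could not be tested were compared by the ratio of their summed reads, R1810A over WT, with an exact interval for counting error only. FOS had 11 reads in R1810A and 16 in WT, a scaled ratio of 0.873 (0.366 to 2.00). FOSB had 6 and 14 reads, a ratio of 0.544 (0.171 to 1.51), and EGR1 11 and 13, a ratio of 1.07 (0.436 to 2.60). EGR2 had 4 reads against 1, a ratio of 5.08 whose interval ran from 0.503 to 250.1. Each interval holds 1, and any ratio inside it is compatible with these counts. What size of change could be detected at this depth was not computed. FOSB lies within the span of ERCC1 on the opposite strand (137 to 197 reads per library), so without strand its few reads cannot be told apart from those of ERCC1. Fitted without a filter on low counts, edgeR called none of these 4 (adjusted p between 0.831 and 0.965), beside 0.393% of 21612 genes.

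All 10 members together made up 0.0557% and 0.0459% of summed gene counts in WT, against 0.0602% and 0.0551% in R1810A. The means were 0.0508 ± 0.00690% and 0.0576 ± 0.00360% (SD, n = 2), and R1810A replicate 2 lay below WT replicate 1. The difference of 0.00685 percentage points was about as large as the SD in WT. JUN family reads (JUN, JUNB and JUND) took 0.0459% and 0.0362% in WT, against 0.0466% and 0.0446% in R1810A. FOS and FOSB reads together took 0.000731% and 0.000434% in WT, against 0.000472% and 0.000336% in R1810A, from 7 to 17 reads per library.

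Among other AP-1, EGR and KLF factors, 9 of 21 had enough reads and none was called (0.356% of all genes were). At an unadjusted p under 0.05 there were 0, beside 8.00% of all genes in either direction, which is little to expect among 9 genes. The median log2 fold change was 0.01. MAFK, a small MAF protein that pairs with other leucine zipper factors, stood at 113 ± 5.39 CPM in WT, against 134 ± 19.6 CPM in R1810A (SD, n = 2, edgeR adjusted p = 0.672). MAFG had a log2 fold change of -0.23 (SE 0.23) and KLF10 one of 0.11 (SE 0.13). Named after their values were seen, BATF, an AP-1 factor of lymphocytes, had a mean of 10.9 RPKM, ATF3 1.16 and FOSL2 0.530. On this scale BATF thus lay above FOS (0.739) and JUN (2.04), and FOSL1, EGR4 and KLF4 had at most 1 read in any library.

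Other immediate early response genes showed the same absence of calls: 53 of 55 were matched, 38 tested and none called (0.356% of all genes were). Without adjustment, 4 had a higher and 1 a lower value at p under 0.05, against 4.94% and 3.06% of all genes, and the median log2 fold change was 0.11. Leaving out WT replicate 2 turned that median to -0.04, and leaving out R1810A replicate 2 gave 0.06. ATF4, a factor of the integrated stress response, stood at 81.1 ± 13.3 CPM in WT, against 59.8 ± 1.82 CPM in R1810A (SD, n = 2, log2 fold change -0.45, edgeR adjusted p = 0.469). ZFP36L1, which promotes decay of AU-rich mRNAs, stood at 63.2 ± 1.59 and 85.6 ± 14.7 CPM (log2 fold change 0.44, adjusted p = 0.470). CCNL1, a cyclin linked to splicing, stood at 135 ± 12.1 and 171 ± 11.7 CPM (log2 fold change 0.34, adjusted p = 0.492). Without WT replicate 1, edgeR called NFKBIA, CD83 and TNFAIP3 of this list as higher (log2 fold changes 0.88, 0.91 and 1.16). In that fit 1.03% of 10999 genes were called higher. TNFAIP3 had 264 and 120 WT reads, against 170 and 201 from R1810A, so the WT libraries were the outer ones, and none of the 3 was called with all libraries.

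The list of upstream activators held SRF, its partners, CREB factors and the MAP kinase cascade, with coregulators such as EP300, NAB1 and NAB2. All of its genes were tested, 33 of 33. None was called, beside 0.356% of all genes tested. The median log2 fold change was 0.04, with 2 at an unadjusted p under 0.05, both higher in R1810A, where 4.94% of all genes were. Such a count is near that background. EP300, a coactivator that acetylates histones, had 153 and 196 WT reads, against 206 and 219 in R1810A. Its level was 65.6 ± 1.26 CPM in WT, against 101 ± 4.61 CPM in R1810A (SD, n = 2, fold 1.54, log2 fold change 0.63, SE 0.13, edgeR adjusted p = 0.087). MRTFA, an actin-sensitive partner of SRF, had 20 and 16 WT reads, against 32 and 21 in R1810A (edgeR adjusted p = 0.585 for a log2 fold change of 0.88 with an SE of 0.37). CREM, a CREB family factor, had a log2 fold change of 0.37 (SE 0.19) and was called only without WT replicate 1 among the 14 fits (log2 fold change 0.72). SRF itself, named after its values were seen, stood at 234 ± 29.8 and 220.0 ± 12.3 CPM (log2 fold change -0.09, SE 0.12).

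Of factors that decay AU-rich mRNAs, 22 of 23 were matched and tested and none was called, beside 0.356% of all genes tested. The median log2 fold change was -0.00021. Besides ZFP36L1, the smallest p belonged to the decapping enzyme DCP2 (log2 fold change 0.33, SE 0.17) and to ZFP36L2 (-0.50, SE 0.27). Of genes for promoter-proximal pausing and its release, a step at which polymerase II is held at many immediate early genes, 16 of 18 were tested and none was called, with a median of 0.09 (0.17 without WT replicate 1 and 0.04 without WT replicate 2). NELFA of the pausing factor had a log2 fold change of 0.30 (SE 0.17) and AFF4 of the elongation complex one of 0.19 (SE 0.12).

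Heat shock and handling stress genes were counted because handling can induce immediate early genes. Of 17 listed 12 were tested and none was called, beside 0.356% of all genes tested. The median log2 fold change was -0.10. Leaving out WT replicate 2 gave 0.0010, and leaving out WT replicate 1 gave -0.19. HSP90AB1, a cytosolic chaperone, stood at 293 ± 14.97 CPM in WT, against 232 ± 12.95 CPM in R1810A (log2 fold change -0.34, SE 0.11, edgeR adjusted p = 0.407). HSPA8 had a log2 fold change of -0.21 (SE 0.10) and HSP90AA1 one of -0.29 (SE 0.15). Named after its values were seen, HSPA1B had 39 and 156 WT reads, against 61 and 55 in R1810A. Its WT libraries were thus the outer ones (log2 fold change -0.35, SE 0.39). The part of handling in the spread of IER2 or JUND between replicates was not tested.

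**Figure D4:**
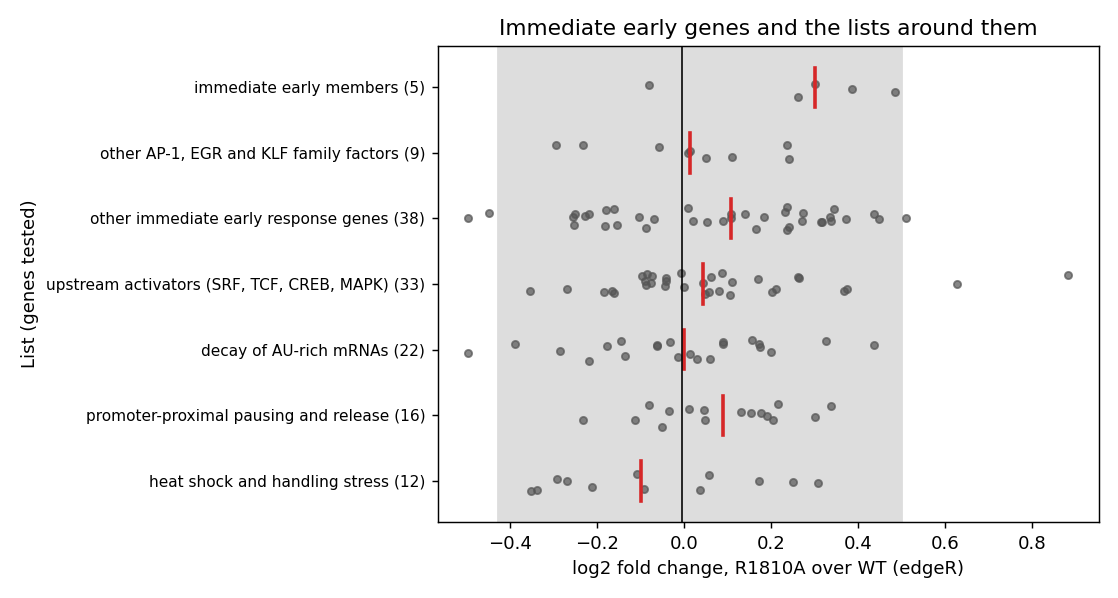
The log2 fold change of R1810A over WT for each tested gene of the members and of 6 lists around them (points), with the list's median (red bar) and the number tested in brackets. The grey band holds all genes tested from the 5th to the 95th percentile (-0.43 to 0.50), and the median is 0.30 for the 5 members, 0.11 for other immediate early response genes (-0.04 without WT replicate 2) and -0.10 for heat shock genes (0.0010 without WT replicate 2).

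The mean profile of the 5 tested members over the 4 libraries was -0.03 and -0.22 in WT, against 0.20 and 0.05 in R1810A, in log2 CPM around each gene's mean. Among 7474 other genes with a mean count of at least 50, the nearest by root mean square distance over these 4 libraries were SNAP23 (0.0142), ENSG00000136653 (0.0202), MAP3K4 (0.0203), LSR (0.0204) and TGFBR1 (0.0206). JUNB (0.0457) and KLF6 (0.0676) lay nearer to that mean than JUN (0.176), JUND (0.213) and IER2 (0.224). With only 4 libraries, which share depth and scaling, such nearness is a description.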

How the data were processed

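Total RNA of Raji cells, after removal of ribosomal RNA, gave 2 WT and 2 R1810A libraries. The submitters' processing notes name Bowtie and hg19. For the counter, annotation release, strand and reads with several matches, the sources used here name nothing. The deposited counts are raw reads per Ensembl gene, per the file headers, and were tested as they stand. The deposited RPKM values equalled counts scaled by the deposited gene length and total reads in all 51714 rows (relative tolerance 0.0001) and were used only for levels between genes.

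Symbols were matched for 40926 identifiers. The comparison used edgeR 4.0.16 in R 4.3.3 (filterByExpr, TMM, quasi-likelihood, group only), checked on simulated data. The SE is the absolute log2 fold change divided by the square root of F, and intervals are at 95%. DESeq2 1.42.0, limma-voom (limma 3.58.1), other scalings and filters, a replicate block and leaving out each library were alternatives, 13 in all. Summed gene counts of 2081636 to 2991959 reads leave genes with few reads imprecise. Promoters came from RefSeq (GRCh38.p14) for 9 members, and exons and untranslated regions from GENCODE release 29, using the principal transcript with the longest 3′ region. The motifs were chosen after the data had been examined.

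The members and lists were chosen with earlier results of these data known. Named genes are all members, and for each list the members called, otherwise the 3 with the smallest p, with POLR2A and the 5 nearest profiles. Genes named otherwise are said to be. Of these and of the markers, 2 genes are not reported here.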

Additional observations from a re-analysis of the deposited data

How the results depend on the processing

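No member was called in either direction under any of the 13 alternatives that tested it. KLF6, JUNB and JUN kept a positive log2 fold change in all of them (KLF6 0.25 to 0.50, JUNB 0.16 to 0.45, JUN 0.34 to 0.62). Their lowest adjusted p were 0.232, 0.089 and 0.438, all without WT replicate 1, and the highest were 1.00. With a library left out, JUND ran from -0.32 (WT replicate 2) to 0.19 (WT replicate 1) and IER2 from -0.11 (R1810A replicate 1) to 0.56 (R1810A replicate 2). The cause was not tested. With the deposited total reads as library size the median of all genes moved to -0.13 and that of the 5 tested members to 0.18. With a library left out, the medians ran from 0.19 to 0.45 for the members, 0.0060 to 0.18 for other AP-1, EGR and KLF factors, 0.01 to 0.06 for upstream activators and -0.02 to 0.08 for AU-rich decay. The difference in the members' summed share was 0.00685 percentage points of gene counts and 0.00124 of the deposited total reads, and 0.00197 to 0.0117 with a library left out.

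Over all genes, 37 were higher and 1 lower. The higher count was 78 with no filter, 21 with at least 10 reads in every library, 73 with the replicate block, 24 with limma-voom and 2 to 113 with a library left out. The lower count was 7 with no filter, 5 with the deposited total reads, 4 with robust edgeR, 4 with the replicate block, 2 with DESeq2 and 0 to 40 with a library left out. WT replicate 1 (113 higher and 40 lower without it), WT replicate 2 (2 and 0), R1810A replicate 2 (90 and 6) and R1810A replicate 1 (37 and 5) changed 1 or both counts. A fit with a library left out takes the spread of the lone library from the other group. The labels do not say that a replicate number marks a shared culture, and deviations of same-numbered libraries correlated at -0.04, so the block pairs by number only.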

Other observations

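Other early response genes of these cells spanned a wide range, described here after their values were seen. BTG2, an antiproliferative gene, had a mean of 162 RPKM, more than JUNB, with 1819 and 3012 WT reads, against 1653 and 1550 in R1810A (log2 fold change -0.23, SE 0.13, edgeR adjusted p = 0.672). MCL1, a survival factor, had 38.5 RPKM and DUSP2, a MAP kinase phosphatase of lymphocytes, 23.4 RPKM. NR4A1, an orphan nuclear receptor known as an early response to antigen receptor signals, had 23 and 59 WT reads, against 33 and 37 in R1810A, so the WT libraries were the outer ones. IER3, NR4A2, NR4A3, DUSP4 and DUSP6 had at most 2 reads in any library.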
